A study of Mus musculus with 18 samples.

Results

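The kidney filters blood in the glomeruli, and the tubule then recovers most of what was filtered. The proximal tubule takes back glucose, amino acids and organic acids and also makes glucose, the thick ascending limb of the loop of Henle takes back salt and secretes uromodulin, and the distal tubule and collecting duct adjust calcium, potassium, acid and water. A high dose of folic acid injures tubule cells in mice, and injured tubule cells are known to lower the genes of these tasks while they divide and repair. Described here are 89 genes that were low in mouse kidney 1 day after folic acid and back near the untreated level at day 14.

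The 89 genes were chosen by their normalized read counts in untreated, day 1 and day 14 kidney, out of 37991 gene identifiers. With 10 added to each group mean, a gene had to have an untreated mean of at least 100 normalized counts, a day 1 level of at most 25% of untreated, every day 1 library below every untreated library, and a day 14 level of at least 80% of untreated. Mitochondrially coded genes were left out. Of 8506 genes with enough untreated signal, 359 (4.22%) met the day 1 conditions, and the 89 are 24.8% of those. A further 148 of the 359 stood between 50 and 80% at day 14, and 122 stood below 50%. The members' levels in untreated, day 1 and day 14 kidney are therefore given as a description. Tests were made between days 2, 3 and 7, whose libraries played no part in the choice. The spread in those tests was estimated over all 18 libraries, including those used in the choice.

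All 18 libraries came from whole frozen kidney of male Balb/c mice, 3 for each of 6 groups. The 5 treated groups had 1 intraperitoneal dose of 250 mg/kg folic acid in sodium bicarbonate solution and were killed 1, 2, 3, 7 or 14 days later. The untreated group received nothing, and no group given bicarbonate alone was analysed here, so the effects of the injection and of the compound cannot be told apart. The labels do not say that the 3 libraries of a group came from separate mice, so p-values measure the spread between these libraries, which may be technical.

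The libraries held 8677197 to 54613262 reads in genes. Mitochondrially coded genes took 59.0 to 75.6% of them, which left 2.83 to 17.2 M reads for all other genes. The members together took 1.72 to 1.82% of those other reads in untreated kidney, 0.179 to 0.305% the day after, and 0.276 to 0.420, 0.646 to 0.953, 1.32 to 1.44 and 1.78 to 2.46% on days 2, 3, 7 and 14. Day 2 replicate 2 was the shallowest library. Levels of gene lists are summed in CPM, counts scaled to all reads in genes, mitochondrial ones included. The mitochondrial share was 69.2 to 75.6% in untreated kidney and 63.5 to 66.3% at day 7, and a smaller share by itself raises the CPM of other genes. Over the 28 measured genes of a tubular injury list the sum was 163 to 237 CPM in untreated kidney and 13714 to 16765 at day 1. At day 14 it was 773 to 3436, and replicate 3 was the highest. In whole kidney, fewer cells of a type and less RNA per cell cannot be told apart.

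After 1 day the members had a median of 17.1% of their untreated level, and on days 2, 3, 7 and 14 the median was 19.9, 39.5, 61.0 and 100.4%. Taken library by library, the median over the 89 genes was 16.2, 15.1 and 19.3% at day 1, 19.2, 14.4 and 19.995% at day 2, 37.7, 30.1 and 44.9% at day 3, 48.4, 59.7 and 62.6% at day 7, and 99.9, 111.1 and 75.2% at day 14. The libraries of day 3 lay above those of day 2 and below those of day 7, without overlap. At day 14 replicate 3, the library with the highest injury list, had the lowest median, and its part in the members' levels was not tested. The 148 genes that ended between 50 and 80% had medians of 17.7, 21.0, 33.03, 35.4 and 60.4% at days 1, 2, 3, 7 and 14. The 122 genes that ended below 50% had medians of 15.5, 16.9, 24.3, 23.4 and 36.6%. Over the 8506 genes with enough untreated signal the median stayed between 89.5 and 96.5%.

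**Figure D1:**
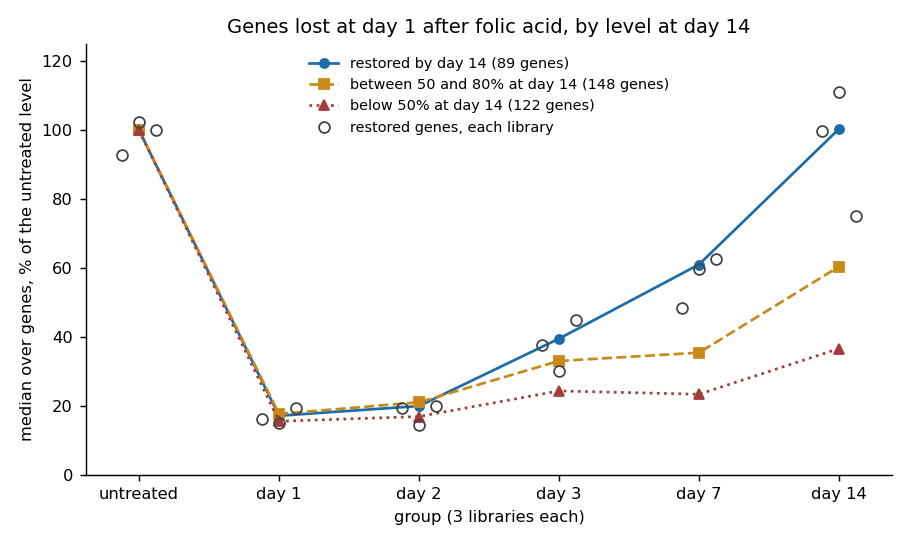
Median level over genes as a percentage of the untreated mean (vertical axis, linear, from 0) in 6 groups of 3 libraries (horizontal axis, not to scale in time). Lines join group medians of the 89 restored genes and of the 148 and 122 genes lost at day 1 that ended between 50 and 80% or below 50%, and open circles are the restored genes' medians in each library. The 3 sets start within 15.5 to 17.7% at day 1, and at day 7 the restored genes stand at 61.0% against 35.4 and 23.4%.

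Of the 89 members 61 were lowest at day 1, 27 at day 2 and 1, Ecm1, at day 3. By day 2, 10 members were back at 50% of untreated or more, and 18 first reached it at day 3, 32 at day 7 and 29 only at day 14. Without day 2 replicate 2, the shallow library, 6 members in place of 10 were at 50% by day 2.

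The word restored rests on group means for part of the list. In 24 members each of the 3 day 14 libraries stood at 80% of untreated or more, in 45 members 2 did, and in 20 members only 1 did. A mean of at least 80% whichever day 14 library is left out was kept by 41 members. Sucnr1, the succinate receptor, had 563, 289 and 300 normalized counts in untreated kidney and 1490, 240 and 143 at day 14, so that without replicate 1 its day 14 mean is 51.1% of untreated. Ccs, the copper chaperone of superoxide dismutase, had 247, 416 and 201 in untreated kidney and 187, 1396 and 98 at day 14, which leaves 51.1% without replicate 2. Csrnp3, a nuclear protein, had 141, 80 and 176 against 63, 639 and 29, which leaves 39.2% without the same library. In these 3 genes 1 day 14 library stood far above the other two.

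The members nearest the limits show how fine the choice was. At the day 1 limit of 25% the last genes inside were Slc8a1 at 24.7%, Mccc2 at 24.8% and Hnmt at 24.9%, and the first outside were Csf1r at 25.0%, Hlf at 25.1% and Eddm3b at 25.1%. At the day 14 limit of 80% Paqr7 (80.2%), Cyp2d9 (81.1%) and Mgat3 (81.6%) were inside, while Ranbp3l (79.996%), Shank2 (79.9%) and Tmem52b (79.6%) were outside. At the untreated limit of 100 normalized counts Tril (102), Hnmt (114) and Podn (122) were inside and Mrvi1 (98.2), Etnppl (96.6) and Sult1a1 (96.5) outside.

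By known role, 14 members belong to the loop of Henle, distal tubule and collecting duct, 31 to small-molecule transport and metabolism, 15 to matrix, stromal and perivascular cells, and 29 to other roles. These role groups were formed after the values were seen and carry no test. Lists of tubule genes from general knowledge of the nephron cover 29 members. Of the 40 loop and distal tubule genes with enough untreated signal 16 were lost at day 1, 10 are members and 1 was still below 50% at day 14. Of 55 proximal tubule transporters 26 were lost, 7 are members and 7 ended below 50%. Of 62 amino acid and creatine metabolism genes 22 were lost, 2 are members and 11 ended below 50%. The 58 respiratory chain and citrate cycle genes held no lost gene, and the fatty acid oxidation list held 12 lost genes of 61 and no member.

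**Figure D2:**
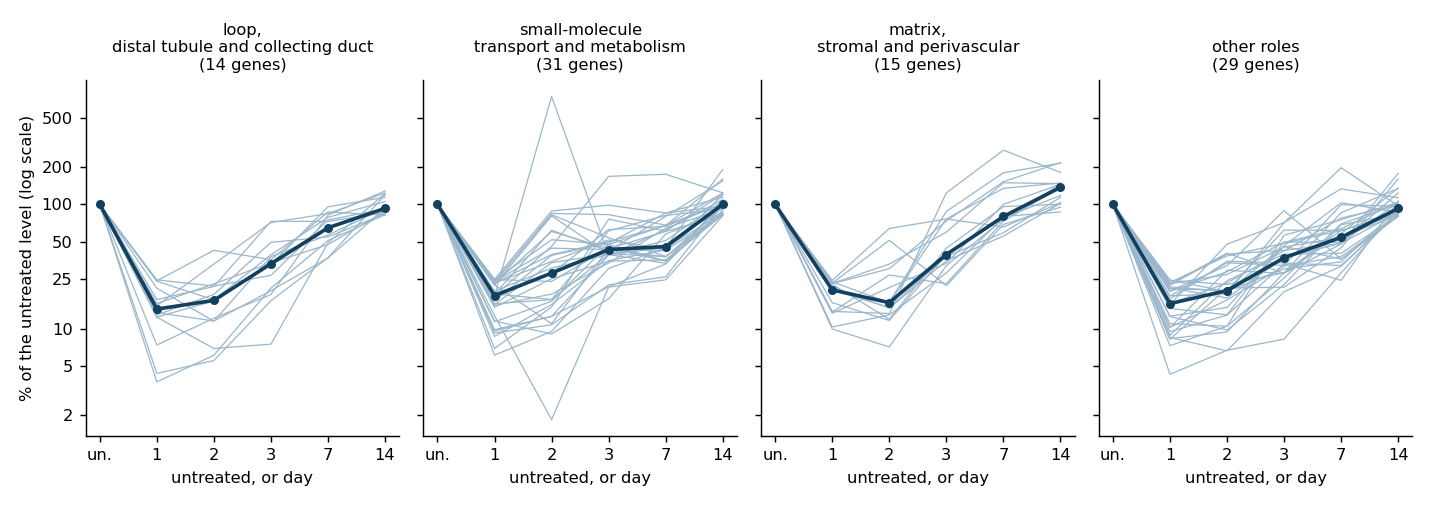
Level of each of the 89 members as a percentage of its untreated mean (vertical axis, log scale) in untreated kidney and at days 1, 2, 3, 7 and 14 (horizontal axis, not to scale in time), in 4 role groups. Thin lines are genes and the thick line with points is the group median. At day 7 the median is 64.9% for the loop, distal and collecting duct genes, 45.8% for transport and metabolism and 79.995% for matrix and stromal genes, and the single high point at day 2 is Car14.

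Upstream sequence is shown for the leading loop gene Slc12a1, for Umod and Pck1, which the results below turn on, and for 3 members that hold searched motifs, Slc13a2, Cyp2d9 and Afm, the last a vitamin E-binding plasma protein. It comes from RefSeq on build GRCm38.p6, the C57BL/6J reference, and not from the Balb/c mice. Each stretch is the 150 bases before the annotated start, written 5′ to 3′ on the gene's own strand. Capitals mark letters that match a searched motif on either strand. Slc12a1 lies at chr2:125152450-125152599 on the plus strand, Umod at chr7:119479263-119479412 on the minus strand, Pck1 at chr2:173152923-173153072 on the plus strand, Slc13a2 at chr11:78422235-78422384 on the minus strand, Cyp2d9 at chr15:82452227-82452376 on the plus strand and Afm at chr5:90518799-90518948 on the plus strand.
Slc12a1: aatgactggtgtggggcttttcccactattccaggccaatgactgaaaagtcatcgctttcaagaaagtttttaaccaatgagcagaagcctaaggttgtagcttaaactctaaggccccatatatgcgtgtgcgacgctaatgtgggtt
Umod: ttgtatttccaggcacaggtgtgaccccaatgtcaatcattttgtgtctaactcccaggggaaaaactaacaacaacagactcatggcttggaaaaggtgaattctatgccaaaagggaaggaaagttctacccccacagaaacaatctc
Pck1: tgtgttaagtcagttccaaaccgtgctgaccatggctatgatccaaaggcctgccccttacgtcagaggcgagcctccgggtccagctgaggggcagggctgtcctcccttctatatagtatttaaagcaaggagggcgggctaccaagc
Slc13a2: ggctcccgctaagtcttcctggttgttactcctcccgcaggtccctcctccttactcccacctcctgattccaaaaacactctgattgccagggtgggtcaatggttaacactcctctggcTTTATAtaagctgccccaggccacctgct
Cyp2d9: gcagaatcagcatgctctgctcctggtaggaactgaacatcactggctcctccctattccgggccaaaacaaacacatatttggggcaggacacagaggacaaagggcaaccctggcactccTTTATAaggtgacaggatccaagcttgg
Afm: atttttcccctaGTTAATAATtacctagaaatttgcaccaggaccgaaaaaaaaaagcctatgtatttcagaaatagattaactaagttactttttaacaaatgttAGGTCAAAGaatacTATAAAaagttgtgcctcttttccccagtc

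Promoters of 75 of the 89 members were found in the RefSeq table, each with 250 bases before and 50 after the start, and 5 motifs were searched on both strands. TATAAA, the TATA box, was held by 14 of the 75 (18.7%) and by 15.7% of all 27025 genes with an entry. Counted along the gene's own strand, a match in either direction begins 29 bases before the start in Slc13a2 and Aqp3, 28 in Cyp2d9 and Ckb, and 30 in Afm. In Slc13a2 and Cyp2d9 the gene's own strand reads TTTATA there, so TATAAA lies on the opposite strand. TGACGTCA, the cAMP response element, was held by 3 (Daam2, Galnt11 and Mturn) and by 2.03% of all genes. GTTAATNAT, letters of the hepatocyte nuclear factor 1 site, and AGGTCAAAG, a repeat bound by nuclear receptors, were each held by Afm alone, and by 0.940% and 0.488% of all genes. CAAAGTCCA, of hepatocyte nuclear factor 4, was held by no member and by 0.555% of all genes. The stretches of Slc12a1, Umod and Pck1 hold no exact match to any of the 5, and near matches were not searched. That of Pck1 reads ttacgtca, which is close to TGACGTCA but was not counted. A match describes letters only.

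Between days 2 and 7 many members rose. Of the 89, 40 were called higher at day 7 than at day 2 and none was lower in edgeR's quasi-likelihood test (Benjamini-Hochberg adjusted p under 0.05 over 16824 genes, which is the threshold for every call below). Changes given with a standard error (SE) are fitted log2 fold changes. Over all 16824 genes tested 466 (2.77%) were called higher in this comparison and 411 were called lower. The median log2 fold change was 1.70 for the members and 0.01 for all genes tested. Among those called the smallest rise was 2.68-fold, for Ak4. In 57 members every day 7 library was above every day 2 library, as in 12.5% of all genes tested. Of the genes that ended between 50 and 80%, 26 of 148 were called higher, and of those that ended below 50% 14 of the 119 tested. The members' count was 23 without day 7 replicate 2 and 15 when only the libraries of the 2 days were fitted. Of the 40 calls 23 held in each fit without 1 library, and those of Tmem207, Kcnj1, Slc13a2, Slc37a4, Slc7a12, Ces1d, Cndp1, Ak4, Ogn, Fbln5, Fbln7, Abcc9, Tril, Tnfsf10 and Vwce were among those that did not.

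From day 2 to day 3, 5 members were called higher (Cyp2d9, Abca9, Ces1d, Rdh16 and Ifi203), against 0.22% of all genes tested, and all 5 are among the 40. The members' median log2 fold change for this step was 0.96. An unadjusted edgeR p under 0.05 was reached by 42 members with a higher day 3 level and 1 with a lower one. All 16824 genes tested held 1317 and 1283 such genes. In 37 members every day 3 library was above every day 2 library, as in 8.83% of all genes tested. The count of members called was 11, 2 and 9 without day 2 replicate 1, 2 or 3, and 3 without any 1 day 3 library. Without day 2 replicate 2 Abca9, Ifi203, Rdh16 and Ces1d missed the threshold (edgeR adjusted p 0.0582, 0.0548, 0.0824 and 0.134), and Cyp2d9 passed in each fit without 1 library but not with limma-voom (adjusted p 0.117). Other tools called 2 (limma-voom) and 28 (DESeq2), and edgeR called 0 when only the libraries of the 2 days were fitted. From day 3 to day 7 edgeR called none, against 0.0178% of all genes tested higher. In that step the median was 0.54, and 70 members were fitted higher and 19 lower. An unadjusted edgeR p under 0.05 was reached by 25 members with a higher day 7 level and 1 with a lower one. All 16824 genes tested held 837 and 861 such genes. DESeq2 called 5 members and limma-voom 2. In 26 members every day 7 library was above every day 3 library, as in 7.63% of all genes tested.

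**Figure D3:**
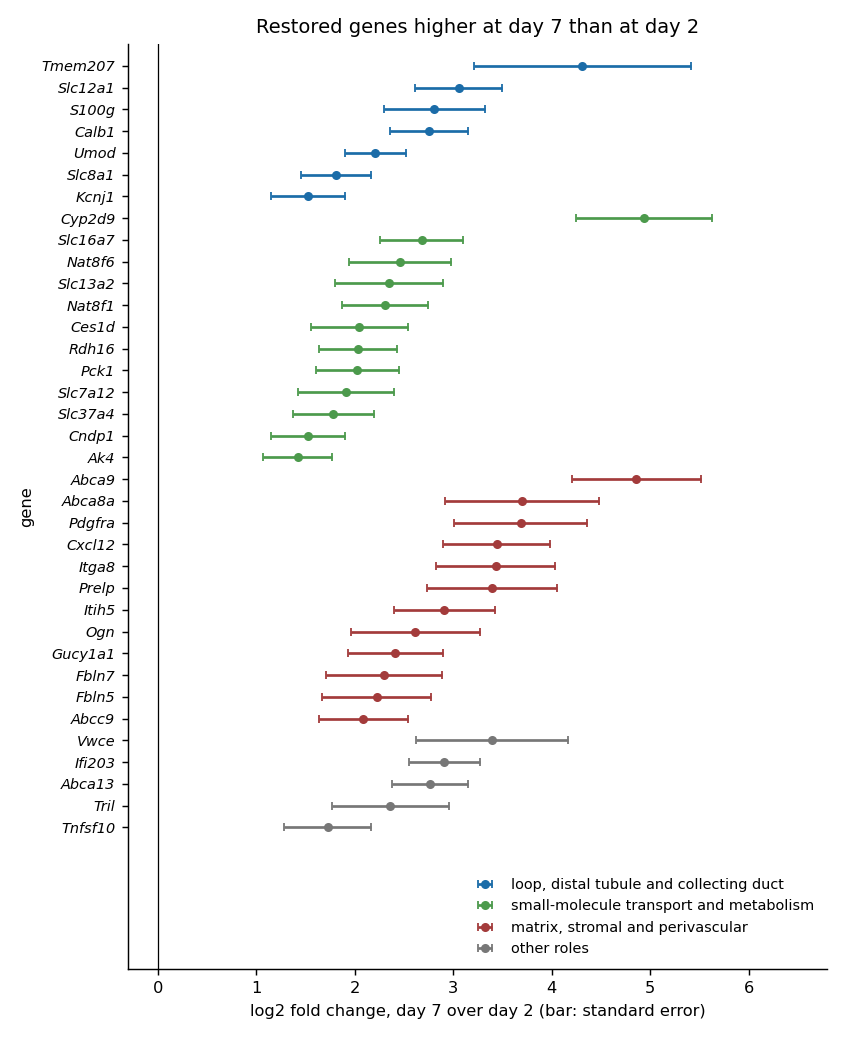
Fitted log2 fold change of day 7 over day 2 (horizontal axis, bars are standard errors) for 36 of the 40 members called higher, one row per gene, coloured by role group. The 4 not drawn are 3 that have no symbol or only a Gm number and Vmn1r18, which had no read at day 2. Every point lies to the right of 0, from 1.42 for Ak4 to 4.94 for Cyp2d9.

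The loop, distal tubule and collecting duct members had medians of 14.4, 16.9, 33.3, 64.9 and 93.0% of untreated on days 1, 2, 3, 7 and 14, and 7 of the 14 were called higher at day 7 than at day 2. Slc12a1, the salt cotransporter of the thick ascending limb, was first in the ranking. It had 9263, 17474 and 18505 normalized counts in untreated kidney, 801, 270 and 584 at day 1, 1032, 404 and 1297 at day 2, 2907, 2192 and 4464 at day 3, 5870, 9310 and 7959 at day 7, and 15250, 12145 and 10031 at day 14. Its day 7 libraries were all above those of day 3, and those of day 3 were all above those of day 2. Its day 14 libraries overlapped the untreated ones only through the low untreated replicate 1. The day 14 level was 82.7% of untreated, and 73.5% without day 14 replicate 1. The log2 fold change from day 2 to day 7 was 3.06 (SE 0.44, edgeR adjusted p 0.000777).

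Umod, which codes for uromodulin, the main protein of normal urine, had 18816, 24672 and 25867 normalized counts in untreated kidney, 6437, 3041 and 7199 at day 1, 4623, 4347 and 2817 at day 2, 8312, 6948 and 11985 at day 3, 19384, 17506 and 17716 at day 7, and 31665, 20523 and 21017 at day 14. The 3 day 7 libraries lay between those of day 3 and the highest untreated one and stand at 78.7% of untreated. From day 2 to day 7 it rose by 2.21 (log2, SE 0.31, edgeR adjusted p 0.000646). Kcnj1, the potassium channel that works beside Slc12a1, rose by 1.53 (SE 0.37, edgeR adjusted p 0.0240), from 632, 170 and 276 at day 2 to 1038, 936 and 1218 at day 7, and its day 3 libraries (870, 1264 and 751) already overlapped those of day 7.

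The calcium genes of the distal tubule were still low at day 3. Calb1, the calcium buffer calbindin-D28k, had 4009, 2979 and 3890 normalized counts in untreated kidney, 268, 242 and 265 at day 1, 613, 432 and 976 at day 3, 1963, 2446 and 4520 at day 7 and 4253, 4964 and 4753 at day 14. All its day 14 libraries lay above the untreated ones. S100g, the smaller calbindin-D9k, had 4872, 2982 and 4977 in untreated kidney, 321, 83 and 456 at day 2, 196, 221 and 517 at day 3, 1194, 2549 and 2521 at day 7 and 4715, 7406 and 3612 at day 14. With 10 added to both means it was still at 7.49% of untreated at day 3, the lowest such percentage of any member then. Wfdc15b, at 8.22% then, has fewer counts, so the added 10 raises its percentage more. Slc8a1, the sodium-calcium exchanger, had 869, 941 and 806 in untreated kidney, 223, 170 and 158 at day 2, 279, 138 and 263 at day 3 and 471, 697 and 786 at day 7.

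All 3 rose between days 2 and 7, by 2.75 (SE 0.40) for Calb1, 2.81 (SE 0.52) for S100g and 1.81 (SE 0.35) for Slc8a1, with edgeR adjusted p of 0.000777, 0.00488 and 0.00739. Their day 7 libraries also lay above all day 3 libraries, but the fitted changes of that step, 2.12 (SE 0.39) for Calb1, 2.72 (SE 0.51) for S100g and 1.499 (SE 0.35) for Slc8a1, missed the threshold (edgeR adjusted p 0.112, 0.112 and 0.167). Calb1 and S100g passed it with DESeq2 (adjusted p 0.000131 and 0.000125), with limma-voom (0.0209 and 0.0347) and in edgeR with no low-count filter (0.00913 and 0.00578), and Calb1 also with a replicate block (0.0481).

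Of the other members of this role group Tmem207 rose by 4.31 (SE 1.10, edgeR adjusted p 0.0298), from 0, 5 and 10 normalized counts at day 2 to 41, 72 and 157 at day 7. The intercalated cell genes Slc4a1, a chloride-bicarbonate exchanger shared with red cells, and Atp6v1b1, a proton pump subunit, did not pass the test. Slc4a1 had 43, 5 and 34 normalized counts at day 2 and 53, 128 and 148 at day 7. The summed level of the 9 measured red cell genes was 16.8 to 20.3 CPM in untreated kidney and 7.11 to 22.2 at day 1. That sum includes Slc4a1 itself, so it is no separate measure of red cells. Atp6v1b1 had 1 high untreated library (532, 153 and 167), and its day 1 level of 24.2% of untreated, just inside the limit, rests on that library. It had 107, 193 and 47 at day 2 and 158, 321 and 258 at day 7. The water channel Aqp3, the prostaglandin E2 receptor Ptger3, the Wnt inhibitor Sfrp1 and the phosphatase inhibitors Ppp1r1a and Ppp1r1b also missed the threshold, with fitted changes of 1.96, 1.12, 1.36, 2.67 and 2.73 and edgeR adjusted p of 0.0584, 0.0921, 0.0607, 0.0571 and 0.182. In the whole list of 48 loop and distal tubule genes tested 13 rose from day 2 to day 7 and none fell, 7 of the 13 not being members, among them Egf, Cldn16 and Slc12a3.

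**Figure D4:**
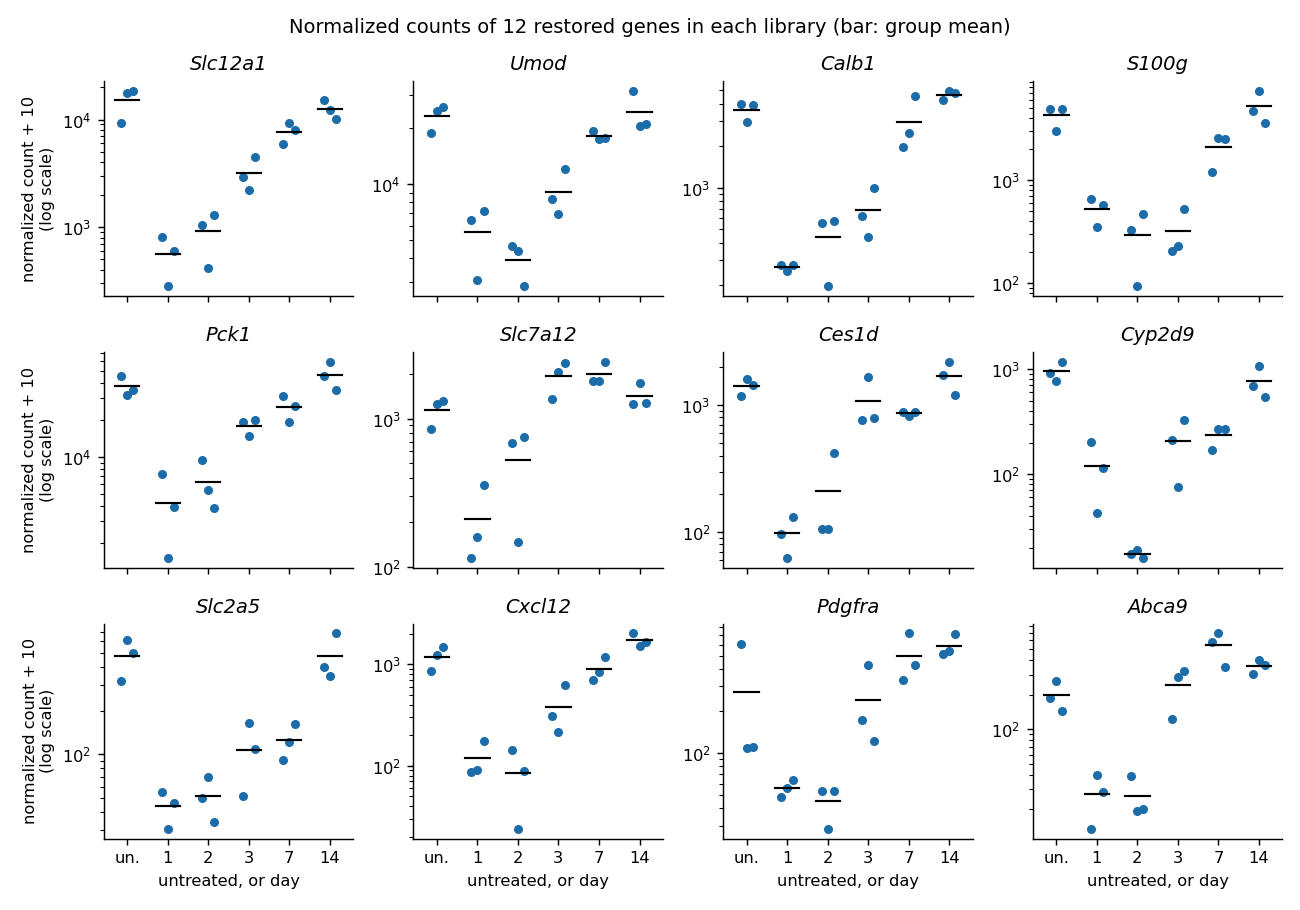
Normalized counts plus 10 (vertical axes, log scale, a separate range for each gene) of 12 members in untreated kidney and at days 1, 2, 3, 7 and 14 (horizontal axis, not to scale in time). Each point is 1 library and each bar the mean of 3. Slc12a1, Umod and Cxcl12 climb at each step after day 2, S100g stays low until day 7, Slc7a12 is above its untreated libraries at day 7, and Slc2a5 is still between 82 and 152 normalized counts at day 7 against 312 to 606 in untreated kidney.

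The transport and metabolism members had medians of 28.0, 43.3, 45.8 and 100.2% of untreated on days 2, 3, 7 and 14, so the medians of days 3 and 7 lay close together, and 12 of the 31 were called higher at day 7 than at day 2. Pck1, the key enzyme of glucose production in proximal tubule, had 45816, 31721 and 35073 normalized counts in untreated kidney, 7293, 1505 and 3920 at day 1, 9446, 5368 and 3851 at day 2, 19016, 14734 and 19792 at day 3, 31318, 19228 and 25684 at day 7, and 45603, 58893 and 34858 at day 14. Its day 3 libraries were all above those of day 2 and overlapped those of day 7. The change from day 2 to day 7 was 2.03 (log2, SE 0.42, edgeR adjusted p 0.00995). Slc37a4, which carries glucose 6-phosphate into the endoplasmic reticulum for the last step of that pathway, rose by 1.78 (SE 0.41, edgeR adjusted p 0.0180), from 177, 69 and 225 to 590, 578 and 512.

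Of the drug, lipid and retinoid metabolism members 3 were called higher already at day 3. Cyp2d9, a cytochrome P450, had 914, 752 and 1154 normalized counts in untreated kidney, 193, 33 and 105 at day 1, 7, 9 and 6 at day 2, 200, 65 and 320 at day 3, 161, 256 and 256 at day 7, and 686, 1067 and 529 at day 14. With 10 added to both means it stood at 1.85% of untreated at day 2, the lowest such percentage of any member at any time. The added 10 weighs more in members with few counts, such as Vmn1r18, which had no read at day 2. From day 2 to day 3 Cyp2d9 rose by 4.76 (log2, SE 0.69, edgeR adjusted p 0.00594), with no overlap between the libraries of the 2 days.

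Ces1d, a carboxylesterase, went from 95, 97 and 410 normalized counts at day 2 to 754, 1664 and 777 at day 3 and 872, 813 and 867 at day 7, against 1166, 1597 and 1439 in untreated kidney. Rdh16, of the retinol dehydrogenase family, went from 157, 129 and 88 to 586, 420 and 589 and then 406, 527 and 607, against 1564, 1009 and 1089. Both rose from day 2 to day 3, by 2.39 (SE 0.50) and 2.11 (SE 0.40), with edgeR adjusted p of 0.0495 and 0.0275, and both had overlapping libraries at days 3 and 7. The Ces1d call was also lost with DESeq2's size factors (edgeR adjusted p 0.0508), a replicate block (0.0628) and in 5 of the 6 fits without 1 library. Nat8f1, of the N-acetyltransferase 8 family, rose by 2.31 from day 2 to day 7 (SE 0.43, edgeR adjusted p 0.00541) and was at 44.7% of untreated then. Cyp2d9, Ces1d, Nat8f1 and Nat8f6 have close relatives in the mouse genome, and counting could split reads between them.

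Among the transporters Slc7a12, an amino acid carrier, passed its untreated level before day 14. It had 844, 1251 and 1315 normalized counts in untreated kidney, 670, 138 and 743 at day 2, 1355, 2043 and 2361 at day 3, 1798, 1795 and 2396 at day 7, and 1244, 1725 and 1269 at day 14. All libraries of days 3 and 7 were above the untreated ones. Slc2a5, the fructose transporter, was slower, with 40, 60 and 24 at day 2, 42, 153 and 98 at day 3, 82, 111 and 152 at day 7 and 392, 335 and 671 at day 14. Its change from day 2 to day 7, 1.54, missed the threshold (SE 0.51, edgeR adjusted p 0.0802).

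The citrate carrier Slc13a2 (2.35, SE 0.55), the monocarboxylate carrier Slc16a7 (2.68, SE 0.43) and Slc7a12 (1.91, SE 0.48) rose from day 2 to day 7, with edgeR adjusted p of 0.0184, 0.00163 and 0.0294. So did the carnosine-splitting enzyme Cndp1 (1.52, SE 0.38) and the adenylate kinase Ak4 (1.42, SE 0.35), with edgeR adjusted p of 0.0259 and 0.0266. The water channel Aqp1 had 615, 3451 and 1009 normalized counts at day 2 and 1059, 1367 and 1655 at day 7, and the imino acid carrier Slc6a20b had 1068, 630 and 698 and then 1127, 1370 and 916, and neither passed.

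The amino acid breakdown genes Gstz1 and Mccc2 stood at 34.9% and 35.0% of untreated at day 7. The monocarboxylate carrier family member Slc16a9 had 1479, 381 and 262 normalized counts at day 2 and 170, 315 and 479 at day 7. Carbonic anhydrase gene Car14 had 8, 4467 and 0 normalized counts at day 2, against 186, 192 and 201 in untreated kidney. The 4467 came from the shallow replicate 2, without which its day 2 level is 6.88% of untreated, and Aqp1 was highest in the same library.

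Of the 56 proximal tubule transporters tested, 10 rose from day 2 to day 7 and 3 fell (Abcc2, Abcg2 and Slc22a2), with a median log2 fold change of -0.11 for the list. Of the 10 that rose 7 are not members, such as Slc22a8 and Slc34a1. Of 57 xenobiotic and steroid metabolism genes 12 rose and 3 fell, with a median of 0.12.

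The matrix, stromal and perivascular members were the role group with the largest share called between days 2 and 7, 12 of 15, with a median log2 fold change of 2.62. Cxcl12, a chemokine made by stromal cells, had 847, 1213 and 1479 normalized counts in untreated kidney, 76, 81 and 167 at day 1, 132, 14 and 78 at day 2, 298, 206 and 614 at day 3, 685, 823 and 1170 at day 7, and 2006, 1520 and 1644 at day 14. Every day 14 library was above every untreated one. The change from day 2 to day 7 was 3.44 (SE 0.54, edgeR adjusted p 0.00158).

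Pdgfra, the platelet-derived growth factor receptor that marks fibroblasts, had 595, 98 and 100 in untreated kidney, 38, 46 and 53 at day 1, 43, 18 and 43 at day 2, 162, 418 and 112 at day 3, 324, 712 and 415 at day 7, and 506, 526 and 707 at day 14. Its untreated mean was set by replicate 1, and its day 14 level of 215% of untreated is measured against that mean. Its day 1 level of 20.4% of untreated, and so its place among the members, rests on that library too. It rose by 3.69 from day 2 to day 7 (SE 0.68, edgeR adjusted p 0.00488). Abca9, a lipid transporter of the ABC family, had 177, 251 and 134 in untreated kidney, 29, 9 and 10 at day 2, 112, 277 and 316 at day 3, 572, 678 and 340 at day 7, and 295, 391 and 356 at day 14. All day 7 and day 14 libraries of Abca9 were above the untreated ones, and it rose by 3.71 (SE 0.63) by day 3 and 4.86 (SE 0.65) by day 7, with edgeR adjusted p of 0.0147 and 0.000574.

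Its relative Abca8a, the next protein-coding gene in the RefSeq gene order, rose by 3.70 from day 2 to day 7 (SE 0.78, edgeR adjusted p 0.0113), from 4, 9 and 11 to 87, 105 and 105. Counting could split reads between these 2. Itga8, an integrin of mesangial and perivascular cells, rose by 3.43, Gucy1a1, a subunit of the nitric oxide receptor, by 2.41 and Abcc9, a potassium channel subunit, by 2.09, with edgeR adjusted p of 0.00360, 0.00791 and 0.0133. The proteoglycans Prelp and Ogn rose by 3.40 and 2.62, the elastic fibre protein Fbln5 by 2.22, its relative Fbln7 by 2.30 and the hyaluronan-binding Itih5 by 2.91, all past the same threshold. Podn, another proteoglycan, had 61, 51 and 112 at day 2 and 82, 67 and 81 at day 7, and Ecm1 had 89, 391 and 152 and then 97, 335 and 427, and neither passed.

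Markers of fibroblasts, endothelium and macrophages were often called higher over the same days, while those of some other cells were seldom or never called higher. Of 6 neutrophil genes tested none was called between days 2 and 7, and their median log2 fold change was -0.73. Of 20 podocyte genes 2 were higher at day 7 and 1 lower, with a median of 0.50. Of 9 lymphocyte genes tested 1 was higher and none lower, with a median of 1.53. The medians of the fibroblast, endothelial and macrophage lists were 2.03, 1.28 and 3.01, so the lymphocyte median was above the endothelial one. Of 20 fibroblast and myofibroblast genes tested 8 were higher at day 7 than at day 2 and none lower, and their summed level was 55.9 to 74.0 CPM in untreated kidney, 110 to 169 at day 1, 123 to 232 at day 2, 287 to 629 at day 3, 367 to 726 at day 7 and 254 to 733 at day 14. In all 3 day 1 libraries that sum was above its untreated range, while the fibroblast gene Dcn was low then. Dcn, a proteoglycan, had 332, 251 and 241 normalized counts in untreated kidney, 64.5, 58.4 and 134 at day 1, 32.2, 4.60 and 62.4 at day 2 and 378, 871 and 480 at day 7, whereas Col1a1 had 85.6, 96.7 and 28.5 in untreated kidney and 659, 516 and 699 at day 1. Of 28 endothelial genes 9 were higher at day 7 than at day 2 and none was lower, and the summed level was 244 to 381 CPM in untreated kidney, 192 to 221 at day 1, 166 to 234 at day 2, 211 to 297 at day 3, 344 to 408 at day 7 and 322 to 353 at day 14. Of 23 macrophage and monocyte genes tested 15 were higher and none lower, and over the 24 measured the sum was 31.1 to 52.1 CPM in untreated kidney, 64.0 to 107 at day 1, 46.2 to 91.1 at day 2, 204 to 308 at day 3, 364 to 701 at day 7 and 208 to 533 at day 14. The part of these cells in the members' rise was not tested.

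Fat and adrenal tissue can come along with a kidney. The summed level of a list of 21 such genes was 131 to 282 CPM in untreated kidney, 29.7 to 70.9 at day 1 and 59.6 to 160 at day 14, and most of it was Lpl, a lipase that the kidney also makes, with 4443 to 7482 normalized counts in untreated kidney. Of the fat cell markers Adipoq had 33.4, 49.0 and 31.8 normalized counts in untreated kidney, 0, 6.87 and 60.0 at day 1 and 0, 36.2 and 1.07 at day 14. Ucp1, of brown fat, had 248, 181 and 3.35 in untreated kidney, 0, 8.59 and 26.9 at day 1 and 0, 18.1 and 0 at day 14, and Cfd had 81.2, 109.9 and 13.4, then 1.13, 18.3 and 62.0, then 1.14, 40.5 and 16.1. For each of the 3 at least 1 day 1 library was above the lowest untreated one, and the adrenal cortex genes Cyp11b1 and Cyp11b2 were at 0 in all 18 libraries. The part of this list in the members' course was not tested.

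Among the members with other roles, Abca13, a large lipid transporter, had 6629, 9530 and 8224 normalized counts in untreated kidney, 987, 259 and 501 at day 1, 809, 1140 and 572 at day 2, 2126, 1766 and 2316 at day 3, 4983, 5684 and 6334 at day 7, and 7954, 11019 and 5629 at day 14. Its libraries separated at each step from day 2 to day 7, over which it rose by 2.77 (SE 0.39, edgeR adjusted p 0.000646). Ifi203, of the interferon-inducible p200 family, had 661, 841 and 640 in untreated kidney, 129, 147 and 108 at day 2, 352, 716 and 453 at day 3 and 792, 1001 and 1076 at day 7. It rose by 2.02 to day 3 (SE 0.35) and by 2.91 to day 7 (SE 0.36), with edgeR adjusted p of 0.0166 and 0.000252, the latter the smallest of any member.

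Tril, which takes part in Toll-like receptor 4 signalling, had 36, 74 and 21 normalized counts at day 2 and 261, 233 and 141 at day 7, all above its untreated 103, 87 and 117. It rose by 2.36 (SE 0.59, edgeR adjusted p 0.0278). Tnfsf10, the death ligand TRAIL, rose by 1.73 (SE 0.44, edgeR adjusted p 0.0304), and its day 14 libraries (926, 852 and 907) all stayed below the untreated ones (1001, 997 and 1161), the only member of which that was so. Vmn1r18, annotated as a vomeronasal receptor, had no read in any day 2 library and 12, 17 and 85 normalized counts at day 7, at least 39.3-fold higher with a floor of 3 counts over the day 2 group. It belongs to a large family of similar genes, so its reads are uncertain, and taken at that bound it leaves the members' median log2 fold change at 1.70.

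Of the others, Wfdc15b, of the whey acidic protein family, had 371, 738 and 409 in untreated kidney, 10, 19 and 68 at day 3, 73, 166 and 166 at day 7 and 654, 509 and 208 at day 14. Its change from day 2 to day 7 missed the threshold (2.54, SE 0.77, edgeR adjusted p 0.0607). Galnt11, an enzyme that starts O-linked sugar chains, had 1772, 848 and 1517 at day 3 and 1405, 1467 and 1339 at day 7, against 3484, 2818 and 4155 in untreated kidney. Smarca2, an ATPase of chromatin remodelling, stood at 34.5% of untreated at day 7 and 92.8% at day 14. Lrrc66 had 142, 204 and 131 in untreated kidney and 35, 42 and 16 at day 7, which at 24.5% of untreated is the lowest level of any member then. By contrast the nuclear receptor Esrrb, the only member from the list of 46 mature tubule transcription factors with enough untreated signal, had 123, 249 and 248 in untreated kidney, 34, 33 and 22 at day 1 and 228, 133 and 256 at day 7, where its libraries overlapped the untreated ones.

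In the same fit, in contrasts that the choice of members used, 84 of the 89 were called lower at day 1 than in untreated kidney, against 5.56% of all genes tested. At day 14 none of the 89 was called, against 1.24% of all genes tested called higher and 0.309% called lower than untreated, and 1 member had an unadjusted p under 0.05. These counts follow from the choice.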

How the data were processed

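RNA was measured in 18 kidney libraries, 3 in each of 6 groups. Per the labels' protocols, libraries were made from 10 ng of total RNA by single primer isothermal amplification. Per the submitters' processing notes, the tools were cutadapt, TopHat2 2.07, HTSeq and DESeq and the build was NCBIM37. Whether counting used strand is not given in the sources used here, so antisense overlaps could mix reads of neighbouring genes. The authors deposited raw counts per gene and, as a signal, the counts divided by 1 size factor per library (0.218 to 1.97). Both tables hold 37991 identifiers, and 5 tally rows, 34.5 to 51.3% of a raw table, were left out. Symbols came from GENCODE M21, a later build, for 32919 identifiers.

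The members, gene lists, role groups and tests were chosen with earlier results of these data known. Levels are the deposited normalized counts, and percentages of untreated have 10 added to both means. Tests used edgeR 4.0.16 on the raw counts (TMM scaling, filterByExpr, quasi-likelihood F test) in 1 fit over 18 libraries with group as the only term, which gave 16824 tested genes, all 89 members among them. P-values are two-sided. Changes are fitted log2 fold changes. Their standard error (SE) in edgeR was derived from the test, as the size of the change divided by the square root of its F statistic. Alternatives were DESeq2 1.42.0, limma 3.58.1 (voom), other scalings, no filter, a replicate block, 2 groups only and each library left out.

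Named members, taken among those with a symbol other than a Gm or Rik number, were the 12 lowest at day 1, up to 4 per tubule list, the largest called changes, those nearest each limit, the 5 highest and 5 lowest at days 2, 3 and 7, the 5 highest at day 14, and members of lists for other cells. Others named (Prelp, Ogn, Itga8 and the like) were chosen after their values were seen.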

Additional observations from a re-analysis of the deposited data

How the results depend on the processing

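Of the 3 counts of members called, that of day 7 against day 2 (40) was 15 with only the 2 groups compared and 23 to 35 with 1 library left out, and 35 to 52 under the other alternatives. For day 3 against day 2 (5) it was 17 with library totals alone, 21 with no low-count filter, 28 with DESeq2, 2 with limma-voom, 0 with only the 2 groups compared and 2 to 11 with 1 library left out. For day 7 against day 3 (0) it was 3 with no low-count filter, 5 with DESeq2, 2 with limma-voom and 0 to 0 with 1 library left out. No member was called lower in any of these. Library totals alone moved the median of all genes by 0.32 and 0.42 (log2) in the comparisons of days 3 and 7 with day 2. The causes were not tested.

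The replicate numbers did not pair libraries: same-numbered libraries deviated together with correlations of -0.092 to 0.042. With a replicate block the counts were 4, 1 and 39 for day 3 against day 2, day 7 against day 3 and day 7 against day 2.

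Adding 50 instead of 10 gave 49 members, 47 of them shared with the 89, adding 1 gave 105 and TMM scaling 84, and leaving out 1 library gave 65 (without day 14 replicate 2) to 113 (without day 14 replicate 3). The members' median level with 1 library left out was 19.0 to 20.1% at day 2, 34.6 to 44.8% at day 3 and 55.6 to 62.8% at day 7.

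Of the calls named, Cyp2d9 held at day 3 and 23 of the 40 held at day 7 in every fit without 1 library. Among the named members not called, the log2 fold change from day 2 to day 7 changed sign for Aqp1 (0.37 with library totals alone, 0.41 with limma-voom, -0.68 to 0.73 with 1 library left out), Hnmt (0.40 with library totals alone, -1.19 to 0.36), Mgat3 (-0.24 with limma-voom, -0.089 with the replicate block, -0.16 to 0.56) and Car14 (3.68 with limma-voom, -4.31 to 4.65). With 1 library left out it also changed sign for Sucnr1 (-0.044 to 1.49), Podn (-0.18 to 0.45), Slc16a9 (-1.59 to 0.027) and Csrnp3 (-0.28 to 0.74).

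The lowest member totals 809 reads over 18 libraries, and 8 members had no read in at least 1 library, so values under about 10 normalized counts rest on few reads.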
